A study of Mus musculus with 20 samples.

Results

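Glutathione synthesis and NADPH supply were followed through 10 mouse genes, taken for their place in the pathway and matched to the count table by Entrez gene ID: Slc7a11, Gclc, Gclm, Gss, Gsr, G6pdx, Pgd, Taldo1, Tkt and Idh1. They are 10 of the 23373 gene IDs in the table, and all 10 were among the 14343 genes with enough counts to be tested. The rule that names them uses no measured value, but the genes were chosen with earlier results of these data known. In the RefSeq annotation of GRCm38.p6 the 4 genes described most closely here span chr9:77754535-77794489 (Gclc, gene ID 14629), chr3:122245487-122267215 (Gclm, 14630), chr8:33653238-33698162 (Gsr, 14782) and chr4:149149991-149166705 (Pgd, 110208). The lowest count of any of them in any library was 535 reads, for Gclc.

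The RNA came from Hepa-1, an established mouse hepatoma line, in 20 RNA-seq libraries that form 10 groups of 2. Control-grown cells had no hexavalent chromium, Cr(VI), in the medium, Cr(VI)-grown cells were kept in it for 20 or 25 passages, and recovered cells had 20 passages in it followed by 5 without. Each of these cultures was then given the solvent DMSO or benzo[a]pyrene (B[a]P), a combustion product that activates the aryl hydrocarbon receptor, for 8 hours. Both passages, 20 and 25, were sampled for the first 2 histories, and passage 25 alone for recovered cells. The labels print the Cr(VI) concentration as 0.5 mM and that of B[a]P as 5 mM. All groups are the same line, so every comparison concerns 1 tumour line in culture. The labels do not say whether the duplicates are separate cultures, and the p-values below therefore reflect library-to-library spread alone, which may be technical.

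Glutathione is a tripeptide of glutamate, cysteine and glycine that cells use to reduce peroxides and to conjugate electrophiles, and in liver cells it also meets reactive products of drug and hydrocarbon metabolism. Cystine enters through the exchanger whose light chain is Slc7a11. The ligase formed by Gclc and Gclm joins glutamate to cysteine in the rate-limiting step, and Gss adds glycine. Oxidised glutathione is returned to the reduced form by Gsr at the cost of NADPH, which G6pdx and Pgd make in the oxidative branch of the pentose phosphate pathway and Idh1 makes in the cytosol from isocitrate. Taldo1 and Tkt run the non-oxidative branch, which returns the pentoses to glycolysis. Many of these genes are textbook targets of NRF2, a factor that binds the antioxidant response element, and Slc7a11 is also a textbook target of ATF4, which binds the amino acid response element.

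Promoter sequence was at hand for 8 of the 10 genes, all but Gclc and Gsr, from the RefSeq table of build GRCm38.p6, in windows from 250 bases before to 50 bases after each transcription start. The core of the antioxidant response element was searched as TGACNNNGC and that of the amino acid response element as TGATGNAA, on both strands. The 250 bases before the start are printed for the 3 genes in which these motifs lay upstream, in the direction of transcription, with the matches in capitals. They are Gclm at chr3:122245307-122245556 on the plus strand, G6pdx at chrX:74428881-74429130 on the minus strand and Slc7a11 at chr3:50443614-50443863 on the minus strand. None of these matches overlaps another.
Gclm: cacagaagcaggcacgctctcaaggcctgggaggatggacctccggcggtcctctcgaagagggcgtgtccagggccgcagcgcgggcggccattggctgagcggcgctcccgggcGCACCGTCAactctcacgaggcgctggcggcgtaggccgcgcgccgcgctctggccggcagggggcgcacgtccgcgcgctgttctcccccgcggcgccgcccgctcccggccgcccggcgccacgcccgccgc
G6pdx: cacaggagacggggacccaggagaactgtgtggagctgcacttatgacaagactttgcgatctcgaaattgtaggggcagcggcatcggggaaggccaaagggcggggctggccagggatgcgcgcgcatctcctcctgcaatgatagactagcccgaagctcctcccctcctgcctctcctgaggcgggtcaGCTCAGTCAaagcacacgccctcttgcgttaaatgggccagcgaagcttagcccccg
Slc7a11: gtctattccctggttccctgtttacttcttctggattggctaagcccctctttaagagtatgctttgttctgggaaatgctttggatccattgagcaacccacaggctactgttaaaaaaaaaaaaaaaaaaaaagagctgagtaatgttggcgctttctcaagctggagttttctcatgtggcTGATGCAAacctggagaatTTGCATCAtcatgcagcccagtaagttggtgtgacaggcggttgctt
Gclm had its antioxidant motif 134 bases before the start and G6pdx 57 bases before it, both in reverse orientation. Pgd had one in the window of its second start, a window that lies inside the span of the gene. It began at base 4 after that start, with the sequence TGACATTGC, and so is not upstream. The antioxidant motif was thus present in 3 of the 8 genes, and in 14% of the 27025 genes in the table. In the 250 bases before the start alone it was present in 2 of the 8, and in 11.5% of all genes. Slc7a11 alone held the amino acid motif, with 1 match in forward orientation 66 bases before the start and 1 in reverse 47 bases before it, while 4.51% of all genes held at least 1. The short core bound by the aryl hydrocarbon receptor, GCGTG, was present in 7 of the 8 genes, all but Slc7a11, and in 35.2% of all genes. A match of letters is a description of the window and no evidence that a factor binds there.

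Total counts were between 20976045 and 37930720 reads per library. Levels are given in CPM, a gene's read count relative to the total of its library, after scaling of the library sizes by the trimmed mean of M-values. Cyp1a1, the standard target of the aryl hydrocarbon receptor, lay between 25.1 and 62.4 CPM in the 10 DMSO libraries and between 930.2 and 2089 CPM in the 10 B[a]P libraries, with no overlap. Of 9 hepatocyte markers, 5 exceeded 1 CPM in every library, among them Alb at 826 to 5698 CPM and Afp at 102 to 334 CPM. Apoa1 was at most 0.0687 CPM and Hnf4a at most 0.394 CPM, so those defining hepatocyte genes were practically absent. Cdh5, Ptprc and Epcam, which define endothelial, blood and biliary epithelial cells, were at most 0.0457, 0.118 and 0.315 CPM, whereas other markers of blood and biliary cells were present, with Csf1r at 18.0 to 53.9, Cd14 at 26.8 to 84.2, Krt19 at 13.1 to 208 and Krt7 at 279.7 to 1823 CPM. The 6 libraries numbered 2 at passage 25 stood apart: they had 14776 to 15329 detected genes against 16049 to 17173 in the 6 libraries numbered 1, and their 100 most abundant genes took 29.6% to 34.3% of the reads against 15.7% to 26.0%. The B[a]P effects averaged over all histories are therefore also given without them.

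Per kilobase of exon in the GENCODE M21 basic annotation, the NADPH genes were above the synthesis genes in untreated control-grown cells at passage 20. Taldo1 had 105 ± 2.57 CPM per kilobase (SD, n = 2), followed by G6pdx with 94.2 ± 4.12, Tkt with 92.5 ± 3.28 and Idh1 with 91.6 ± 0.449. These 4 levels lay close together, and G6pdx, Tkt and Idh1 could not be ordered within the spread of 2 libraries. Pgd had 68.9 ± 0.649 CPM per kilobase and Gsr 56.9 ± 1.26. The cystine transporter Slc7a11 had 29.5 ± 1.73 CPM per kilobase. The ligase subunits were nearly equal, with 16.7 ± 0.961 for Gclc and 15.8 ± 0.516 for Gclm, and Gss was lowest with 12.2 ± 0.116. The length used bears on this order: per kilobase of the longest transcript in the full annotation, Pgd had 41.9, below Gsr, Idh1 had 98.5, above G6pdx and Tkt, and Gss had 7.32 CPM. The order also did not hold in all libraries: over the 10 DMSO libraries Tkt reached from 81.1 to 511 CPM per kilobase.

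**Figure D1:**
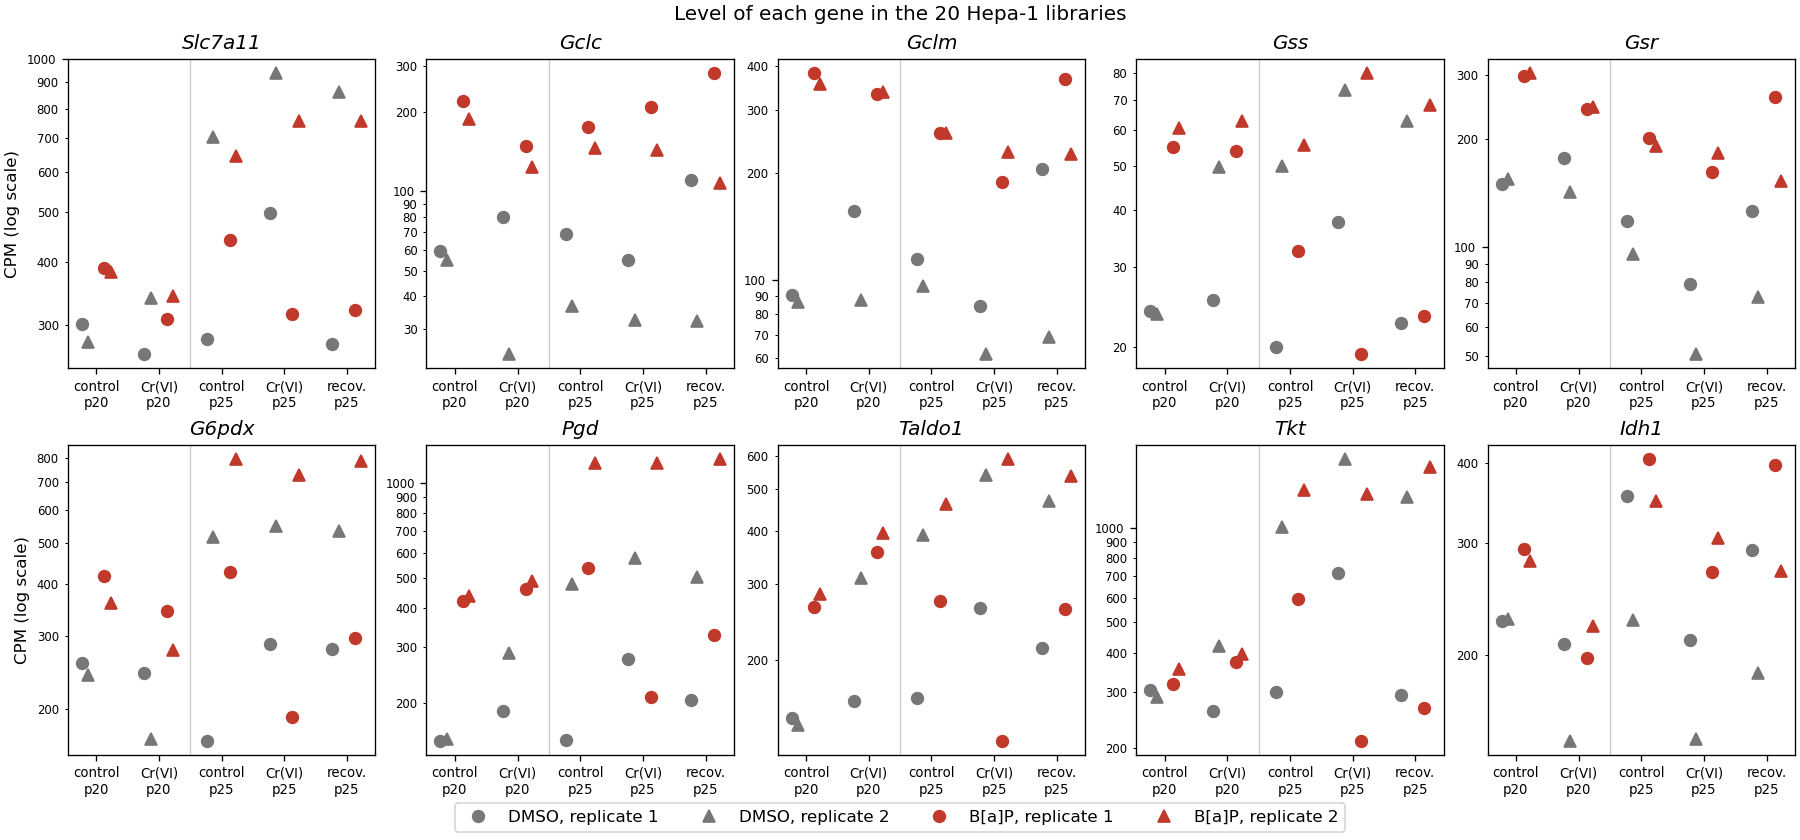
Level of each gene in CPM (log scale, with its own range in each panel) in the 20 libraries, by growth history and passage (p20, p25; recov., recovered). Grey symbols are DMSO and red symbols B[a]P, circles are replicate 1 and triangles replicate 2. Gclc, Gclm and Gsr separate by colour, with red above grey in every pair, whereas Slc7a11, Gss, G6pdx, Taldo1 and Tkt at passage 25 separate mainly by symbol.

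B[a]P raised both subunits of the glutamate-cysteine ligase and glutathione reductase, and these 3 genes were higher with B[a]P in all 10 pairs of libraries that share growth history, passage and replicate number. In bulk RNA, a change in the mix of cells and a change of RNA per cell cannot be told apart. Averaged over the 5 combinations of history and passage, Gclc rose 3.15-fold, Gclm 2.81-fold and Gsr 1.98-fold. Of all tested genes, 6.04% were higher in all 10 pairs. In edgeR's quasi-likelihood test with Benjamini-Hochberg adjustment over the 14343 genes, 3 of the 10 rose and none fell, where 3.86% of all genes rose and 3.74% fell. All 10 estimates were above 0, with a median of 0.48 on the log2 scale against -0.003 for all genes tested. Because the libraries of equal number at passage 25 deviated together, a fit with that number as a block at passage 25 was added after the data had been seen. It placed 8 of the 10 past the threshold, adding Gss, G6pdx, Pgd, Taldo1 and Idh1, where 13.4% of all genes rose.

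The catalytic ligase subunit Gclc had 59.6 and 54.9 CPM in control-grown DMSO cells at passage 20 and 219 and 188 CPM with B[a]P. In Cr(VI)-grown cells at that passage it had 79.9 and 24.1 CPM with DMSO and 149 and 123.9 CPM with B[a]P. At passage 25 the control-grown pair went from 68.8 and 36.6 CPM to 176 and 146 CPM. The treated level was thus above both untreated libraries in each of these groups, although the Cr(VI)-grown DMSO duplicates at passage 20 lay far apart. At passage 25 the Cr(VI)-grown cells had 54.8 and 32.6 CPM with DMSO and 208 and 144 CPM with B[a]P. The recovered cells had 110.1 and 32.2 CPM with DMSO and 281 and 107 CPM with B[a]P, the only group pair in which Gclc overlapped between treatments. The averaged log2 fold change was 1.66 ± 0.29 (SE; edgeR adjusted p = 0.00352).

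Gclm, the modifier subunit that lowers the enzyme's need for glutamate, followed Gclc closely. Control-grown cells at passage 20 had 90.6 and 86.5 CPM with DMSO and 381 and 355 CPM with B[a]P. Cr(VI)-grown cells at that passage had 156 and 87.3 CPM with DMSO and 334 and 336 CPM with B[a]P. In both histories at passage 20 the treated duplicates were nearly equal. At passage 25 the control-grown cells went from 114 and 95.8 CPM to 258 and 259 CPM. The Cr(VI)-grown cells went from 84.3 and 61.6 CPM to 188 and 229 CPM. The recovered cells had 205 and 68.8 CPM with DMSO and 368 and 226 CPM with B[a]P. No group overlapped between treatments, and the averaged log2 fold change was 1.49 ± 0.20 (SE; edgeR adjusted p = 0.000563).

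Gsr, the reductase that regenerates glutathione, had the smallest standard error of the 3. Control-grown cells at passage 20 had 149.6 and 154 CPM with DMSO and 298 and 304 CPM with B[a]P. Cr(VI)-grown cells at that passage went from 177 and 143 CPM to 241 and 245 CPM. At passage 25 the control-grown cells went from 118.5 and 95.9 CPM to 200.5 and 191 CPM, the Cr(VI)-grown cells from 79.1 and 50.4 CPM to 162 and 183 CPM, and the recovered cells from 126 and 72.6 CPM to 261 and 153 CPM. No group overlapped between treatments, and the untreated level was lower at passage 25 than at passage 20 in both histories taken at both. The averaged log2 fold change was 0.99 ± 0.15 (SE; edgeR adjusted p = 0.0016). Gclc, Gclm and Gsr each passed the threshold in all 27 other settings tried, which include leaving out each library. Without the 6 libraries numbered 2 at passage 25, their log2 fold changes were 1.57, 1.34 and 0.88.

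The other steps of glutathione supply did not pass the test without the block. Slc7a11 ranged from 263 to 939 CPM with DMSO (median 321) and from 309 to 758 CPM with B[a]P (median 385), and it was higher with B[a]P in 6 of 10 pairs. Its averaged log2 fold change was 0.03, with a 95% interval from -0.57 to 0.63. With the block it was 0.06 ± 0.11 (SE; edgeR adjusted p = 0.711). Gss ranged from 20.0 to 73.7 CPM with DMSO and from 19.3 to 80.2 CPM with B[a]P. It was higher with B[a]P in 9 of 10 pairs, by 0.44 ± 0.32 on average (log2, SE; edgeR adjusted p = 0.6, and 0.0368 with the block). At passage 20 Gss was higher with B[a]P in both control-grown pairs, going from 24.0 to 55.1 CPM and from 23.7 to 60.6 CPM, whereas both passage 25 pairs of the recovered cells differed by 0.12 or less on the log2 scale. Without the 6 libraries numbered 2 at passage 25, the averaged log2 fold change was 0.14 for Slc7a11 and 0.34 for Gss (edgeR adjusted p = 0.396 and 0.265).

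**Figure D2:**
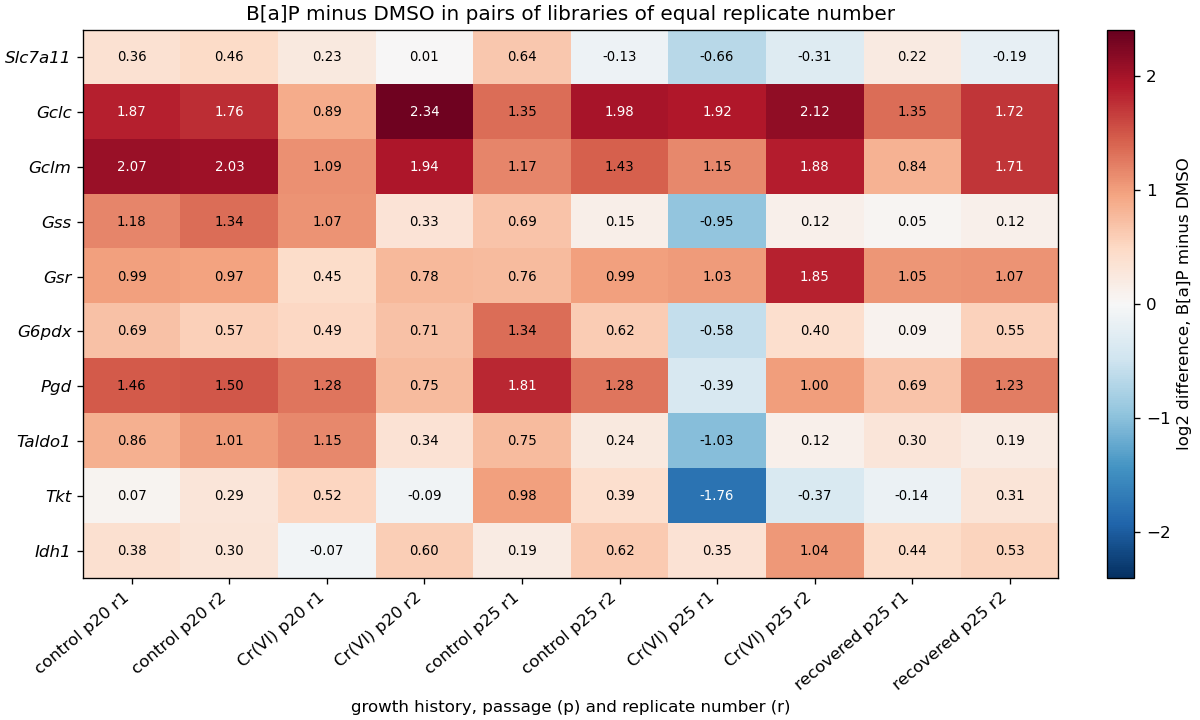
Difference of log2 CPM between the B[a]P and the DMSO library of equal replicate number, for each gene (down) and each of 10 pairs (across, by growth history, passage p and replicate r). Red is higher and blue lower with B[a]P. The Gclc, Gclm and Gsr lines are red throughout, from 0.45 to 2.34, and the pair of Cr(VI)-grown replicate 1 at passage 25 holds the lowest value of 6 genes.

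Among the NADPH genes of the oxidative pentose phosphate branch, Pgd had the larger response. Pgd, which makes the second NADPH of that branch, had 152 and 154 CPM in control-grown DMSO cells at passage 20 and 419.9 and 436 CPM with B[a]P. In Cr(VI)-grown cells at that passage it went from 188 and 289 CPM to 459 and 487 CPM. These 4 libraries of each treatment at passage 20 did not overlap. At passage 25 the control-grown cells had 152 and 476 CPM with DMSO and 536 and 1157 CPM with B[a]P. The Cr(VI)-grown cells had 275 and 578 CPM with DMSO and 209.5 and 1153 CPM with B[a]P, and the recovered cells 204 and 503 CPM with DMSO and 329 and 1185 CPM with B[a]P. At passage 25 the treatments overlapped in the Cr(VI)-grown and the recovered cells, and replicate 2 was the higher library in all 6 groups. Pgd was higher with B[a]P in 9 of 10 pairs, the exception being Cr(VI)-grown replicate 1 at passage 25.

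The averaged log2 fold change of Pgd was 1.14 ± 0.37 (SE; edgeR adjusted p = 0.0845), and with the block it was 1.07 ± 0.14 (SE; adjusted p = 5.05e-05). Without the libraries numbered 2 at passage 25 it was 0.91 (edgeR adjusted p = 0.00696). It also passed when the Cr(VI)-grown B[a]P library numbered 1 at passage 25 was left out (adjusted p = 0.0273), or the recovered B[a]P library of that number (adjusted p = 0.0492). G6pdx, the entry enzyme of the branch, ranged from 168 to 551 CPM with DMSO and from 192 to 793 CPM with B[a]P. It was higher in 9 of 10 pairs, by 0.52 ± 0.31 on average (log2, SE; edgeR adjusted p = 0.434, and 0.00731 with the block), and by 0.41 without the libraries numbered 2 at passage 25 (adjusted p = 0.0749). The 1 pair in which G6pdx and Pgd were lower than with DMSO was Cr(VI)-grown replicate 1 at passage 25, with differences of -0.58 and -0.39 on the log2 scale.

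The non-oxidative branch gave no call without the block. Taldo1, the transaldolase, ranged from 141 to 540.4 CPM with DMSO and from 129 to 588 CPM with B[a]P, and its averaged log2 fold change was 0.42 ± 0.31 (SE; edgeR adjusted p = 0.59, and 0.0496 with the block). Tkt, the transketolase, ranged from 261 to 1645 CPM with DMSO and from 211 to 1554 CPM with B[a]P. It was higher in 6 of 10 pairs, and its averaged log2 fold change was 0.09 with a 95% interval from -0.82 to 1.01. With the block it was 0.03 ± 0.15 (SE; edgeR adjusted p = 0.923). Idh1, the cytosolic isocitrate dehydrogenase, ranged from 146 to 356 CPM with DMSO and from 198 to 405.5 CPM with B[a]P. It was higher in 9 of 10 pairs, by 0.42 ± 0.15 on average (log2, SE; edgeR adjusted p = 0.129, and 0.00487 with the block). Without the 6 libraries numbered 2 at passage 25, Taldo1 was estimated at 0.32, Tkt at -0.12 and Idh1 at 0.31 (edgeR adjusted p = 0.265, 0.622 and 0.108). In that setting 4 of the 10 passed, the 3 leading genes and Pgd, among 2125 genes in all. Of the 27 other settings, G6pdx, Gss and Taldo1 passed in 3, Idh1 in 4 and Pgd in 7, while Slc7a11 and Tkt passed in none.

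The response was next taken within each growth history. Counts of calls in separate histories do not test whether long growth in Cr(VI) alters the reaction to B[a]P. That question is put to the differences of response tested further below. The recovered cells also had fewer libraries than the other histories, so their counts of calls cannot be compared directly with the others. In control-grown cells Gclm rose by 1.68 ± 0.32 (log2, SE; edgeR adjusted p = 0.0163), the only 1 of the 10 past the threshold, where 0.934% of all genes rose. That call was lost when any 1 of the 8 libraries was left out, at adjusted p-values up to 0.109, while the fold change stayed between 1.62 and 1.75. With the block 7 of the 10 rose in control-grown cells, Gclc, Gclm, Gss, Gsr, G6pdx, Pgd and Taldo1, where 7.02% of all genes rose. In Cr(VI)-grown cells none of the 10 passed in edgeR, where 0.481% of all genes rose. Unadjusted, 3 were under 0.05, where 1278 of the 14343 genes were. DESeq2 called 3, namely Gclc, Gclm and Gsr, among 470 genes in all. The block gave those same 3, where 5.38% of all genes rose. In recovered cells none of the 10 passed, where 0.0488% of all genes rose. Unadjusted, 3 of the 10 were under 0.05, where 526 of the 14343 genes were. DESeq2 called none of the 10, and 105 genes in all. The block gave Gsr alone (adjusted p = 0.0384), where 0.76% of all genes rose.

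**Figure D3:**
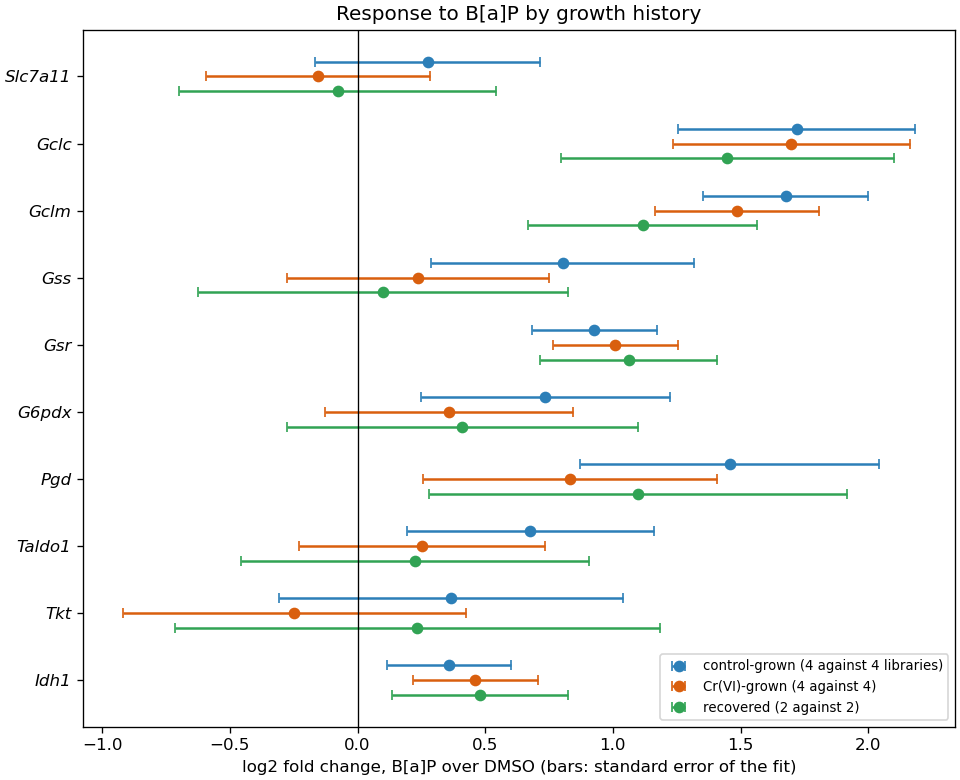
Log2 fold change of each gene, B[a]P over DMSO, in control-grown cells (blue), Cr(VI)-grown cells (orange) and recovered cells (green), with bars of 1 standard error of the fit without the block. For Gclc, Gclm and Gsr the 3 estimates run from 0.93 for Gsr in control-grown cells to 1.72 for Gclc in control-grown cells, and 5 of the other 7 genes, all but Pgd and Idh1, have at least 1 bar that crosses 0.

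The 3 leading responses were set side by side across histories, of which the recovered one rests on passage 25 alone. Gclc was estimated at 1.72 in control-grown, 1.70 in Cr(VI)-grown and 1.45 in recovered cells on the log2 scale, with SE of 0.46, 0.46 and 0.65. Gclm was estimated at 1.68, 1.49 and 1.12, with SE of 0.32, 0.32 and 0.45. Gsr was estimated at 0.93, 1.01 and 1.06, with SE of 0.24, 0.25 and 0.35. At passage 25 alone, Gclc was 1.61 in control-grown and 2.01 in Cr(VI)-grown cells, Gclm 1.30 and 1.51, and Gsr 0.87 and 1.41. Leaving out 1 library in turn moved the recovered estimate between 0.59 and 2.59 for Gclc, 0.53 and 2.11 for Gclm, and 0.62 and 1.51 for Gsr. The direct test of the difference between Cr(VI)-grown and control-grown cells gave -0.02 for Gclc, with a 95% interval from -1.40 to 1.36. It gave -0.19 for Gclm, with an interval from -1.15 to 0.77, and 0.08 for Gsr, with an interval from -0.66 to 0.82. With the block the differences for Gclc, Gclm and Gsr were -0.06 ± 0.42, -0.17 ± 0.35 and 0.10 ± 0.23 (log2, SE). The intervals are wide, and differences of response anywhere within them are not resolved. Their bounds are no limit of detection, because the calls also take the adjustment over all genes.

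No difference of response passed the test for any of the 10 genes, either for Cr(VI)-grown or for recovered against control-grown cells. In edgeR 0% of all genes passed in either comparison, and DESeq2 called none. Unadjusted, 60 and 30 of 14343 genes were under 0.05, none of them among the 10. Uniform p-values would put a share of 0.05 of the genes there, far more than these counts, so the test without the block was conservative. Its common dispersion, the spread shared by all genes, was 0.228, against 0.053 with the block at passage 25. The absence of calls is therefore no evidence of equal responses. The recovered and the Cr(VI)-grown comparison share the passage 25 control libraries. Tkt had the widest spread between histories at passage 25: it was higher with B[a]P in both control-grown pairs, by 0.98 and 0.39, and lower in both Cr(VI)-grown pairs, at -1.76 and -0.37 on the log2 scale. That difference was -1.22 ± 1.35 (log2, SE) and did not pass (edgeR adjusted p = 0.974). With the block it was -1.80 ± 0.49 and also did not pass (edgeR adjusted p = 0.264). For Pgd the averaged difference was -0.63 with a 95% interval from -2.38 to 1.13, and for Gss it was -0.57 with an interval from -2.13 to 1.00. With the block they were -0.86 ± 0.30 and -0.74 ± 0.31 (log2, SE), and neither passed (edgeR adjusted p = 0.576 for both).

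Growth in Cr(VI) on its own was compared in DMSO cells. None of the 10 genes passed: edgeR called 0% of all genes without the block, 685 were under 0.05 unadjusted, and DESeq2 called 14, none of the 10. Idh1 alone among the 10 had an unadjusted p under 0.05, with a log2 fold change of -0.53 ± 0.24 (SE; edgeR adjusted p = 0.895). With the block at passage 25, 0.53% of all genes passed and again none of the 10, where Idh1 had an adjusted p of 0.0828 and Gss of 0.0847. A block at both passages called 531 genes, none of them among the 10. The median of the 10 estimates was 0.15 on the log2 scale, against -0.03 for all genes.

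Beneath that result the 10 genes moved in different directions at passage 25. Gsr was lower in Cr(VI)-grown than in control-grown DMSO cells in both numbered sets, by differences of -0.58 and -0.92 on the log2 scale. Idh1 was also lower in both, at -0.75 and -0.62, and Gclm at -0.44 and -0.63. Tkt was higher in both, by 1.25 and 0.71, as were Gss, by 0.90 and 0.55, and Slc7a11, by 0.82 and 0.42. Pgd was also higher in both, by 0.85 and 0.28, and Taldo1, by 0.70 and 0.47. At passage 20 Idh1 was again lower in both sets, at -0.12 and -0.63. Gss was again higher, by 0.08 and 1.06, as were Pgd, by 0.31 and 0.91, and Taldo1, by 0.14 and 1.14. Gsr, at 0.24 and -0.11, Tkt, at -0.23 and 0.54, and Slc7a11, at -0.20 and 0.29, differed in sign between the sets, and Gclm was higher in both, by 0.78 and 0.01. Gclc differed by 0.42 in the first set and by -1.17 in the second, because the second Cr(VI)-grown DMSO library had 24.1 CPM against 79.9 CPM in the first. That library differed from its partner by -1.71 log2 units for Gclc, while the other 3 groups at passage 20 differed by -0.27 to -0.12. It also differed from its partner by 0.96 for Gss, 0.62 for Pgd, 0.95 for Taldo1 and -0.50 for Idh1. For these genes the other 3 groups differed by -0.06 to 0.22. Their second differences at passage 20 therefore rest on that library. None of these differences passed the test, and they are given as values. At passage 25 each of the 10 genes had the sign of its mean difference from replicate 1 to replicate 2, given below. In the Cr(VI)-grown DMSO libraries the 100 most abundant genes also took more of the reads than in the control-grown ones. The shares at passage 25 were 26.0% against 19.8% and 34.3% against 29.6%. Whether the makeup of the libraries had a part in these differences was not tested.

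Cr(VI) growth under B[a]P likewise gave no call among the 10, where edgeR passed 0% of all genes and 523 were under 0.05 unadjusted, none of them among the 10. DESeq2 called 1 gene, which was not one of the 10. The estimates ran from -0.42 for Idh1 to 0.20 for Taldo1 on the log2 scale. These values hold the same libraries as the difference of response and are not independent of it.

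Recovered cells were compared with control-grown cells under DMSO at passage 25. Again 0% of all genes passed in edgeR, 146 were under 0.05 unadjusted, none of the 10 among them, and DESeq2 called none. That count is again far below a share of 0.05, so the absence of calls is no evidence of equal levels. The ligase subunits went opposite ways in the 2 numbered sets: Gclc differed by 0.67 in the first and -0.18 in the second, and Gclm by 0.84 and -0.48 on the log2 scale. Idh1 was lower in both, at -0.28 and -0.28. Tkt differed by -0.03 and 0.32, where Cr(VI)-grown cells of the same sets had differed by 1.25 and 0.71 from the same control libraries. Whether recovered and Cr(VI)-grown DMSO cells differ for Tkt was not tested.

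At passage 25 the difference between replicate numbers was larger than the averaged B[a]P estimate for Slc7a11, Gss, G6pdx, Pgd, Taldo1 and Tkt. From replicate 1 to replicate 2 of the same group, Tkt differed by 1.88 on average over 6 groups (log2; range 1.15 to 2.59) and Pgd by 1.57 (range 1.07 to 2.46). Gss differed by 1.34, G6pdx by 1.29, Taldo1 by 1.23 and Slc7a11 by 1.15, and for each of these 6 genes replicate 2 was higher in all 6 groups. The other 4 genes lay the other way on average: Gclc by -0.93, lower in all 6 groups, Gclm by -0.45, Gsr by -0.40 and Idh1 by -0.40. The median over all genes tested was -0.08.

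Over 13482 genes with a known transcript (94% of those tested), this replicate difference had a Spearman rank correlation of 0.648 with transcript GC content and -0.367 with transcript length, as a description across genes, which are not independent. The B[a]P effect had correlations of 0.131 and -0.086. Among the 10 genes, Tkt had the highest GC content at 54.0% and Slc7a11 the lowest at 40.7%, against a median of 49.8% for all genes. Tkt, Taldo1 and G6pdx, at 54.0%, 53.6% and 52.6%, were higher in replicate 2. Idh1 and Gclm, at 43.8% and 42.1%, were lower in it on average, as was Gclc at 47.7%. Pgd and Gss, at 48.5% and 48.2%, were higher. Slc7a11 was higher in replicate 2 with the lowest GC content, and Gsr was lower on average at 50.1%. Whether GC content or the share of reads in abundant genes has a part in these differences was not tested.

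**Figure D4:**
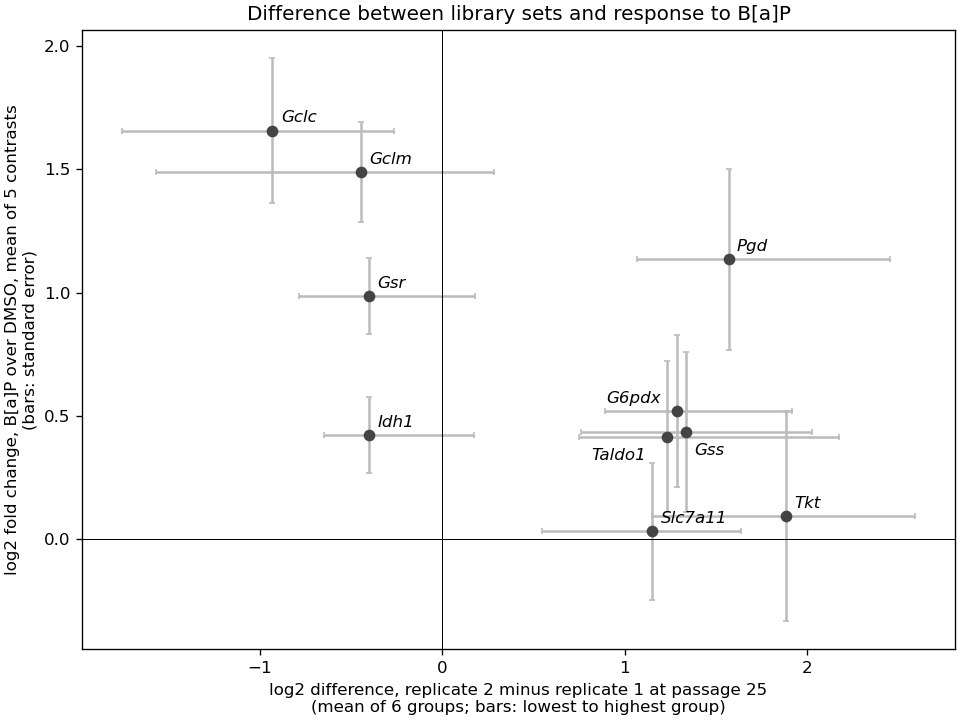
For each gene, the mean log2 difference of replicate 2 minus replicate 1 over 6 groups at passage 25 (horizontal, bars from the lowest to the highest group) against the averaged log2 fold change with B[a]P (vertical, bars of 1 standard error). Gclc, Gclm, Gsr and Idh1 lie left of 0 and the other 6 genes right of it, between 1.15 and 1.88, and Gclc and Gclm, at 1.66 and 1.49, are highest.

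Across the 20 libraries the 10 genes formed no single block. Pearson correlations of log2 CPM were positive in 30 of 45 pairs of genes, from -0.50 to 0.96 with a median of 0.20, as a description over libraries that share treatments and library sets. After the mean of each set of equal passage and number had been subtracted, 36 of 45 were positive and the median was 0.55. The highest of these were Gclc with Gclm at 0.94, Gclm with Gsr at 0.93 and Gclc with Gsr at 0.93, and then Gss with Taldo1 at 0.91. Slc7a11 went instead with Tkt, at 0.76, and with Gss, at 0.74, and had -0.05 with Gclc. Against the mean of the other 9, Pgd stood highest at 0.96 and Tkt and Slc7a11 lowest at 0.33 and 0.35. Outside the 10, the genes whose profile was most like their standardised mean over the 20 libraries were Mocos at 0.985, Abhd4 at 0.959, Alas1 at 0.958, Gpc1 at 0.957 and Pld3 at 0.952. Of these, Alas1, the first enzyme of haem synthesis, rose with B[a]P by 1.14 ± 0.27 (log2, SE; edgeR adjusted p = 0.0192). These genes were chosen by likeness over the same libraries, DMSO and B[a]P together. A rise with B[a]P is therefore partly set by the choice, and the p-value is no independent evidence of it. Median CPM was also higher with B[a]P for Mocos (51.8 to 114), Abhd4 (134 to 234), Gpc1 (248 to 479) and Pld3 (11.0 to 16.7).

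Further genes of the pathways were read from lists, to be set against the 3.86% of all genes that rose and the 3.74% that fell without the block, and the 13.4% and 13.5% with it. The lists were chosen with earlier results of these data known. Unadjusted in edgeR, 2728 of the 14343 genes were under 0.05, and DESeq2 called 1780 genes in all, in either direction. Of 26 genes of cystine supply and of glutathione use and breakdown, 21 were tested, and none rose or fell in edgeR, with 2 under 0.05 unadjusted, none called by DESeq2 and a median of 0.12 on the log2 scale. With the block 5 rose and 2 fell. The lowest p-values belonged to Ggt1, which cleaves extracellular glutathione (0.57 ± 0.22, log2 and SE; adjusted p = 0.144), to the glutaredoxin Glrx (0.47 ± 0.19; adjusted p = 0.188) and to Hagh, a glutathione thiolesterase (0.51 ± 0.25; adjusted p = 0.285). Slc3a2, the heavy chain that partners Slc7a11, was estimated at 0.35 ± 0.20 (adjusted p = 0.387, and 0.0412 with the block).

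Of 23 further genes of the pentose phosphate pathway and NADPH supply, 20 were tested and edgeR called 2, 1 higher and 1 lower, where 3.86% of all genes rose and 3.74% fell. H6pd, which performs the first steps of the branch inside the endoplasmic reticulum, rose by 0.92 ± 0.24 (log2, SE; adjusted p = 0.0313). Mthfd1l, of mitochondrial folate metabolism, fell by 0.81 on the log2 scale, with an SE of 0.21 (adjusted p = 0.0319). Rpia, the ribose isomerase, was estimated at -0.43 ± 0.14 (adjusted p = 0.0847, and 0.00267 with the block). With the block 1 of the list rose and 4 fell, where 13.5% of all genes fell, and DESeq2 called 1 higher and 2 lower. The median of the list was -0.05, and the malic enzyme Me1 was estimated at 0.07 ± 0.13.

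Part of a list of NRF2 control and readout genes also rose with B[a]P. Whether NRF2 or the aryl hydrocarbon receptor had a part in these rises was not tested. Of 16 genes that control or report NRF2, 8 rose and none fell in edgeR, where 3.86% of all genes rose, and DESeq2 gave the same counts, with a median of 0.81 on the log2 scale against -0.003 for all genes. The quinone reductase Nqo1 rose by 3.68 ± 0.15, the haem oxygenase Hmox1 by 2.91 ± 0.25 and the sulfiredoxin Srxn1 by 1.91 ± 0.19 (log2, SE; edgeR adjusted p = 3.2e-08, 2.27e-05 and 4.87e-05). With the block 10 of the 16 rose, where 13.4% of all genes did. The transcript of NRF2 itself, Nfe2l2, was estimated at 0.16 ± 0.18 (adjusted p = 0.821). Of 13 genes of the ATF4 program, 2 rose in edgeR, where 3.86% of all genes rose, Sesn2 by 1.57 ± 0.26 and Ddit4 by 1.48 ± 0.20 (adjusted p = 0.0022 and 0.000566). Atf3 was estimated at 0.49 ± 0.15 (adjusted p = 0.0622). DESeq2 called 5 higher. With the block 5 of the 13 rose and 1 fell, where 13.4% of all genes rose and 13.5% fell, and Atf4 itself was estimated at 0.38 ± 0.27 (adjusted p = 0.571 without it).

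Markers of other cell types were read in the same libraries. The 4 endothelial markers summed to at most 1.04 CPM with DMSO and 1.37 CPM with B[a]P, and none of them exceeded 1 CPM in all libraries. The 5 macrophage markers summed to 62.1 to 137 CPM with DMSO and 66.7 to 123.05 CPM with B[a]P, the 5 stellate cell and fibroblast markers to 408 to 1520 CPM and 611 to 1603 CPM, and the 4 cholangiocyte markers to 434 to 2033 CPM and 328 to 1710 CPM. The hepatocyte markers summed to 2061 to 7255 CPM and 1652 to 8783 CPM. These ranges overlapped between treatments in all 5 lists. With B[a]P, Cd68 rose by 1.00 ± 0.13, while Fgb fell by 1.15 and Sox9 by 0.72 on the log2 scale (edgeR adjusted p = 0.000472, 0.0256 and 0.0022), the only 3 calls among the markers tested without the block. Their part in the responses of the 10 genes was not tested.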

How the data were processed

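The authors deposited raw read counts per Entrez gene ID for 20 libraries. Per the submitters' processing notes, TopHat, DESeq, bcl2fastq and CASAVA 1.8 were used, with build mm10. Which program counted the reads, with which annotation and strand setting, is not given in the sources used here, so reads shared with paralogs or antisense genes cannot be separated. Of 23373 IDs, 23275 were matched to a symbol through RefSeq (GRCm38.p6). The sample titles and the passage label disagree on the later passage, and the label was used.

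Genes were filtered with filterByExpr, scaled by TMM and fitted with edgeR 4.0.16 in R 4.3.3, with 1 mean per group and 10 residual degrees of freedom. Contrasts were tested two-sided, with Benjamini-Hochberg adjustment and a threshold of 0.05. CPM use TMM-scaled totals; pair differences add 0.5 CPM. Lengths per kilobase were unions of exons of the GENCODE M21 basic annotation; GC content and transcript length were those of the longest transcript in its full set, which for Pgd and Gss retains introns. The fits were tested on simulated data.

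Replicate 2 minus replicate 1 differences correlated at 0.881 to 0.952 between all 15 pairs of groups at passage 25, so numbers paired those libraries. The 6 correlations at passage 20 were 0.0554 to 0.724, with a median of 0.322, above the limit of 0.1 set for a median. They were uneven, so whether numbers paired those libraries is unclear, and pairs at that passage are a description. A block at passage 25 (9 residual degrees of freedom) was therefore added after the data had been seen. Other settings were DESeq2 1.42.0, RLE scaling, no filter, a block at both passages, and libraries left out.

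The 10 genes are all named, together with the 3 of lowest p in each of 4 pathway lists, the 5 most alike genes, Cyp1a1 and 5 marker lists; Slc3a2, Me1, Nfe2l2 and Atf4, and the markers named, were picked from their lists after the values were seen. Genes and lists were chosen with earlier results of these data known.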

Additional observations from a re-analysis of the deposited data

How the results depend on the processing

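The calls for Gclc, Gclm and Gsr over all growth histories held under every setting tried, while the counts of genes past the threshold within a history did not. Of the 10 genes, those past the threshold for B[a]P over all histories were 5 with DESeq2 and 8 with the replicate block, with the block at passage 25 only, and with that block when the second library of Cr(VI)-grown DMSO cells at passage 20 was left out, while the genes past it in all went from 1089 to 1780, 4056, 3854 and 4954. The last 2 settings, and the second gene length, were chosen after seeing the data. In control-grown cells the count was 3 with DESeq2, 3 with only the groups compared, 4 without the passage 25 libraries numbered 2, and 7 in each of the 3 fits with a replicate block, while all genes past it went from 316 to 755, 522, 1052, and 2399, 2199 and 3390. Leaving out 1 library in turn gave 0 to 0. In Cr(VI)-grown cells it was 3 with DESeq2, 1 with RLE scaling, 2 without the passage 25 libraries numbered 2, 3 with the replicate block, 3 with it at passage 25 only and 4 with the library left out as well, while all genes went from 135 to 470, 129, 772, 1620, 1501 and 2276. In recovered cells those 3 block fits gave 1, 1 and 3, while all genes went from 8 to 215, 193 and 605. For Cr(VI) growth under DMSO or B[a]P, for recovered against control-grown cells and for both differences of response, no call among the 10 changed with the replicate block or with it at passage 25 only. For Cr(VI) growth under DMSO, all genes past the threshold went from 0 to 531 and 76 in these fits. In the other comparisons of this group they stayed at 0 in these fits. For Cr(VI) growth under DMSO and under B[a]P, the totals changed again in the third block fit. It leaves out the second library of Cr(VI)-grown DMSO cells at passage 20. That fit has 1 library in a group, and its totals for these comparisons are not given. The cause of these differences was not tested.

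Some small log2 fold changes changed sign. Without the passage 25 libraries numbered 2, Tkt over all histories was -0.12, in Cr(VI)-grown cells Gss was -0.19, G6pdx -0.020 and Taldo1 -0.21, in recovered cells Slc7a11 was 0.19 and Tkt -0.17, and Gclm for Cr(VI) growth under DMSO was 0.043. For that last comparison Gclm was also 0.0096 with only the groups compared, Gclc was 0.11 and Gclm 0.13 with the block at passage 25 and the library left out, and G6pdx was -0.0024 with no filter. None of these values passed the threshold. Leaving out 1 library in turn gave log2 ranges on both sides of 0, over all histories for Slc7a11 -0.12 to 0.24 and Tkt -0.27 to 0.37; in Cr(VI)-grown cells for Slc7a11 -0.54 to 0.11, Gss -0.45 to 0.58, G6pdx -0.27 to 0.69, Pgd -0.019 to 1.21, Taldo1 -0.48 to 0.61 and Tkt -1.16 to 0.14; in recovered cells for Slc7a11 -0.82 to 0.96, Gss -0.87 to 1.02, G6pdx -0.45 to 0.96, Pgd -0.10 to 1.89, Taldo1 -0.38 to 0.90 and Tkt -1.54 to 1.63; and for Cr(VI) growth under DMSO for Gclc -0.77 to 0.10, Gclm -0.28 to 0.14 and G6pdx -0.29 to 0.51. In the recovered cells 1 library is then left in an arm and is assumed to vary like the other groups. With 2 libraries a group and the spread between sets at passage 25, differences between histories inside the intervals given above are not resolved. Searching 250 bases before the start alone left 2 genes with the antioxidant motif in place of 3.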
